A study of Mus musculus with 19 samples.

Results

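The 16 endometrial libraries from mated mice were chosen by the level of Ltf, which encodes lactoferrin, an iron-binding protein that uterine epithelium secretes under estrogen. Libraries with more than 500 CPM of Ltf (CPM, counts relative to the library total, scaled by TMM factors) were called Ltf-high, and libraries with less than 50 CPM were called Ltf-low. The rule took 4 Ltf-high and 8 Ltf-low libraries, 12 of the 19 libraries in the series, and left 4 mated libraries between the limits. Every gene of the 12 libraries shares its source with the value that chose them, so the differences between Ltf-high and Ltf-low libraries are given as a description with no test.

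All females were wild type C57Bl/6, and the mated females were paired with Balb/c males. Endometrium was scraped from the muscle layer on day 3.5 post coitum (pc), before implantation, or from unmated females at estrus, and the INT and estrus libraries were made from pooled tissue, so the spread between them is a spread between pools. The mated groups, named by their column prefixes, were INT (males labelled intact), SVX, SVX_VAS and VAS (surgically modified males), with 4 libraries each. The labels of the last 3 groups name different surgeries in different places, and no surgery is attached to them here. Ltf-high libraries were INT 1, INT 2, SVX_VAS 2 and VAS 1. Ltf-low libraries were INT 3, INT 4, SVX 2, SVX 3, SVX 4, SVX_VAS 1, SVX_VAS 3 and VAS 4. The libraries between the limits were SVX 1, SVX_VAS 4, VAS 2 and VAS 3. Of the INT libraries, 2 were Ltf-high and 2 were Ltf-low, whereas SVX held 0 Ltf-high and 3 Ltf-low libraries, and whether the state depended on the mating group was not tested. Estrus was represented by libraries 1, 2 and 4. Females of the INT group were 8 to 14 weeks old, and the collection of the other mated groups is not described beyond their labels.

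Total gene counts were 14201095 to 18979334 in the Ltf-high, 12661266 to 20525568 in the Ltf-low, 13012388 to 16722426 in the between and 15487788 to 31781270 in the estrus libraries. Where a gene had 0 counts, the upper limit of 3 counts was 0.144 to 0.234 CPM in the Ltf-low libraries, covering counting error only. VAS 2 and VAS 3 stood apart from the other 17 libraries: 299 genes had 0 counts in both and at least 3 CPM in every other library, and 214 of these (71.6%) have an exon overlapping an exon of another gene on the opposite strand, beside 31.0% of all 17222 measured genes. Neither library was Ltf-high or Ltf-low, but both enter the comparison with estrus, where values without them follow.

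In the mouse cycle, estrogen from growing follicles makes the uterine epithelium divide and secrete lactoferrin, complement C3, mucins and antimicrobial proteins around estrus. After ovulation, progesterone silences much of this program, and through epithelial Indian hedgehog it acts on the stroma by way of Ptch1, Gli1, Nr2f2 and Hand2, which restrain epithelial growth before the embryo attaches. Acod1, Areg and Il13ra2 are among the epithelial genes that progesterone induces at this stage. Lactoferrin is a classical readout of estrogen action in this tissue.

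Ltf itself, on chr9:111019271-111042767 (GRCm38, plus strand, ENSMUSG00000032496.7), stood at 2143 CPM in INT 1, 639 in INT 2, 2286 in SVX_VAS 2 and 709 in VAS 1. The Ltf-low libraries had a lowest value of 15.4, a median of 24.1 and a highest value of 45.0 CPM. Just outside the limits, the between libraries ran from 151 to 272 CPM. The estrus libraries had 1863, 2830 and 2075 CPM, so INT 1 and SVX_VAS 2 lay within the range of estrus and INT 2 and VAS 1 lay below it. Because Ltf set the groups, these values are the rule and not a result.

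A gene was counted as higher or lower where the mean log2 CPM of the 4 Ltf-high libraries differed from that of the 8 Ltf-low libraries by at least 1.5-fold and the 2 groups of libraries did not overlap. Of 17222 measured genes, 1139 (6.61%) were higher and 422 (2.45%) were lower in Ltf-high endometrium, together 1561 (9.06%), and 3631 (21.1%) did not overlap whatever the difference. Upper quartile scaling gave 1008 higher and 709 lower genes. The higher genes had a median log2 difference of 1.21, with 693 genes at 2-fold or more, 308 at 4-fold or more and 75 at 16-fold or more. The lower genes had a median of -0.68 and a minimum of -1.61, and 27 of them reached 2-fold. Within the mating groups the median over the higher genes was 1.22 in INT (2 against 2 libraries), 1.12 in SVX_VAS (1 against 2) and 1.17 in VAS (1 against 1), and over the lower genes it was -0.63, -0.43 and -1.05. Because these genes were chosen for not overlapping, their direction within each mating group was fixed in advance, and only the sizes are a description. In bulk tissue, fewer cells of a type and less RNA per cell cannot be told apart.

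Promoter windows from 250 bases before to 50 bases after the transcription start (RefSeq, GRCm38.p6) were found for 729 of the 1139 genes that were higher in Ltf-high libraries, 256 of the 422 lower genes and 11446 of the 17222 genes measured. The windows of Ltf, which set the groups, and of 3 small proline-rich genes are shown, to set the promoters of 1 family with low Ltf-low levels beside that of Ltf. Capitals mark GGTCA (one arm of an estrogen response element), TGACTCA (the AP-1 motif) and TATAAA, or their reverse complements. Each is printed from 5′ to 3′ on the gene's strand.
Ltf, chr9:111019042-111019341, plus strand: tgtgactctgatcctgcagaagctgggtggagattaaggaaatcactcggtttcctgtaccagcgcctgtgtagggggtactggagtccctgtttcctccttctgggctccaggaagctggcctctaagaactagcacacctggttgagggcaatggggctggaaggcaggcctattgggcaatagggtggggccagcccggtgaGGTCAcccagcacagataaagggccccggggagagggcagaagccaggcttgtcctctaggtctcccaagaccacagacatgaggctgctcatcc
Sprr2f, chr3:92364937-92365236, plus strand: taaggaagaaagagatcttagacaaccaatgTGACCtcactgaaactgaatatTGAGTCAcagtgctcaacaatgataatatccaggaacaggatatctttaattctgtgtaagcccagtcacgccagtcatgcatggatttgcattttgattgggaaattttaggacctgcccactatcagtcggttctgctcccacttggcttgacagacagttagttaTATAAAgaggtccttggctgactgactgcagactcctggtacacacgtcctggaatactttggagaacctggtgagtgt
Sprr2b, chr3:92316455-92316754, plus strand: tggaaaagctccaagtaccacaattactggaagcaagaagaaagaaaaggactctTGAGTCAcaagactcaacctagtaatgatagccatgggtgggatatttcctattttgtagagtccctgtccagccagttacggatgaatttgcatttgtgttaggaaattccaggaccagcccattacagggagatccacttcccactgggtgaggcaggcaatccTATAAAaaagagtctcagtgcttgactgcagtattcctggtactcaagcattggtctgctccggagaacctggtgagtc
Sprr1a, chr3:92485832-92486131, minus strand: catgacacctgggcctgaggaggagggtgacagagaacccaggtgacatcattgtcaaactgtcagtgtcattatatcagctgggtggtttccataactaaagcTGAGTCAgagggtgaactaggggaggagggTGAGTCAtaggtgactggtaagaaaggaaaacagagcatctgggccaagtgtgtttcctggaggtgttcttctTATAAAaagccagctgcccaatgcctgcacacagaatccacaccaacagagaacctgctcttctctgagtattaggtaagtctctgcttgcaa

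The Ltf window held GGTCA starting 45 bases before the start and none of the other letters marked. Sprr2f held GGTCA at 219 bases, TGACTCA at 197 bases and TATAAA at 29 bases before the start, the first 2 on the opposite strand. Sprr2b held TGACTCA and TATAAA at 195 and 29 bases, and the aligned windows of Sprr2f and Sprr2b were 65.7% identical. Sprr1a held TGACTCA at 146 and 116 bases and TATAAA at 43 bases before the start. On both strands, 12 motifs were searched, chosen with the results known. TGACTCA was found in 11.2% of the higher genes, 5.08% of the lower genes, 4.88% of all measured genes and 5.2% of the table's 32851 windows. GGTCA was found in 46.8%, 41.8%, 42.3% and 40.5%, and TATAAA in 12.1%, 13.3%, 9.15% and 13.6%, in the same order. The full element GGTCANNNTGACC, which contains GGTCA, was in 0 of the 729 higher genes and 1 of the 11446 measured genes (0.00874%), and in 23 (0.07%) of all windows. Its shortened form GGTCANNNTGAC was in 0.137% of the higher genes, 0.105% of all measured genes and 0.201% of all windows. AGAACA was found in 18.4% of the higher genes, 18.8% of the lower genes, 15.2% of all measured genes and 18.97% of all windows. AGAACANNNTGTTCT, which contains it, was in 0 higher genes, 0 lower genes, 0.00874% of all measured genes and 0.00913% of all windows. AGGAAG was in 45.1% of the higher genes, 44.1% of the lower genes, 38.0% of all measured genes and 35.4% of all windows. The remaining 4 were GGGANNNNTCC, TCACCCCAC, GAAANNGAAA and AACCGGTT. They were in 5.08%, 0.549%, 4.8% and 0.412% of the higher genes and 6.25%, 1.17%, 2.73% and 0.0% of the lower genes. Over all measured genes the shares were 5.44%, 0.638%, 3.77% and 0.288%, and over all windows 4.02%, 0.551%, 3.44% and 0.146%. A match is a run of letters and not a binding site.

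**Figure D1:**
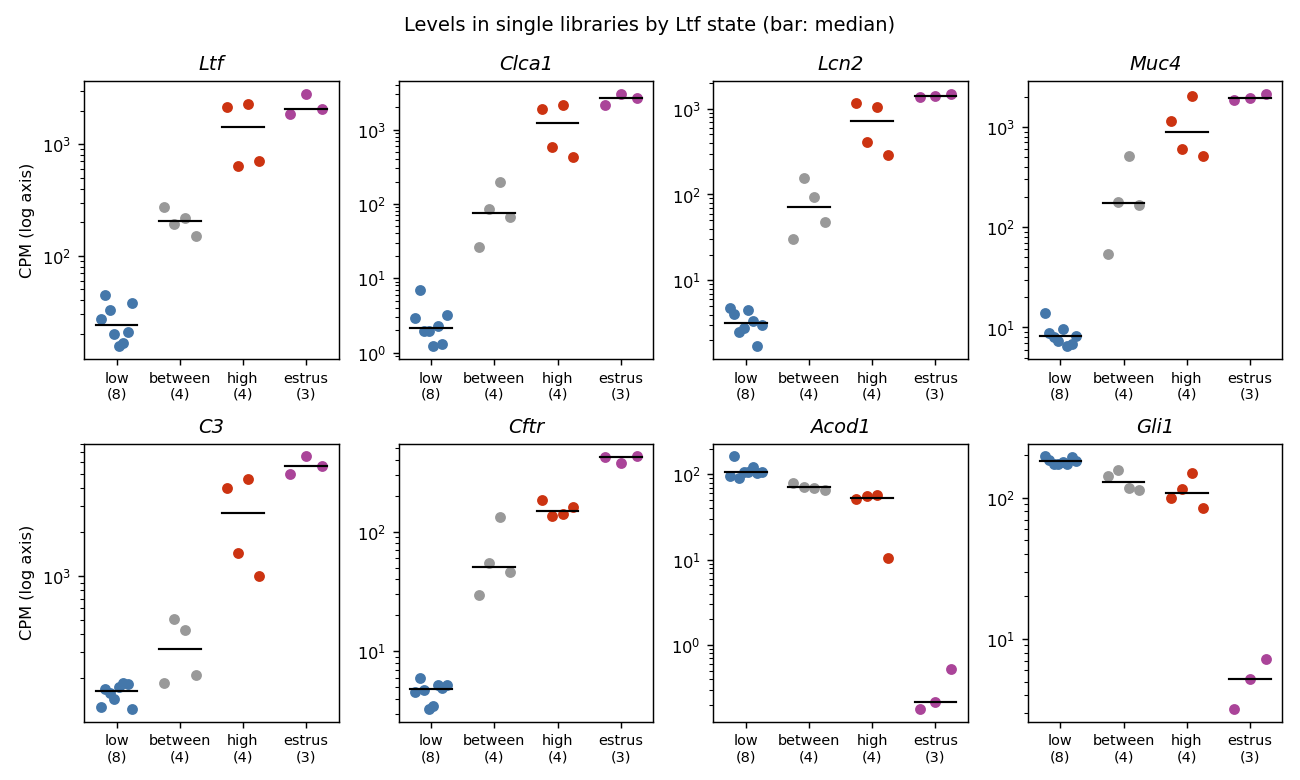
CPM of 8 genes in each library (log axis), with libraries ordered by Ltf state, the number of libraries in parentheses and a bar at the median. Clca1, Lcn2, Muc4, C3 and Cftr were higher in the 4 Ltf-high than in the 8 Ltf-low libraries, Acod1 and Gli1 were lower, and Acod1 in VAS 1 (10.6 CPM) lay apart from the 3 other Ltf-high libraries.

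Clca1, Lcn2, Muc4, Muc20 and Alpl were among the 15 genes that stood furthest above the Ltf-low level. Clca1, a secreted regulator of chloride channels in mucus-producing cells (chr3:145003817-145032776, minus strand, GRCm38), had 1881, 579, 2121 and 434 CPM in INT 1, INT 2, SVX_VAS 2 and VAS 1. In the Ltf-low libraries its lowest, median and highest levels were 1.21, 2.11 and 6.89 CPM. The log2 difference was 8.66 ± 0.64 (SE, n = 4 and 8), and the lowest Ltf-high library was far above the highest Ltf-low library. Lcn2, which encodes lipocalin 2, a protein that binds bacterial siderophores, had 1172, 408, 1046 and 290 CPM against 1.70 to 4.76 CPM, a log2 difference of 7.55 ± 0.53. Muc4, a membrane mucin of the epithelial surface, had 1154, 609, 2025 and 509 CPM against 6.48 to 13.9 CPM (6.75 ± 0.47). Muc20, whose exons overlap those of Muc4 on the opposite strand, had 152, 82.4, 206 and 76.7 CPM against 0.581 to 1.88 CPM. Since the strand setting of the counting is not given in the sources used here, reads of these 2 genes may not be separable. Alpl, the tissue-nonspecific alkaline phosphatase, had 266, 120, 133 and 92.2 CPM against 1.25 to 3.40 CPM (6.03 ± 0.36). Among the 4 Ltf-high libraries, INT 1 was highest for Lcn2 and Alpl, and SVX_VAS 2 for Clca1, Muc4 and Muc20.

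Other leading genes had few counts in the Ltf-low libraries. Spink12, a serine protease inhibitor, summed to 9 counts over the 8 Ltf-low and 1526 over the 4 Ltf-high libraries, a ratio of depth-scaled sums of 319 (95% exact counting interval 168 to 700). Tmprss11e, a membrane serine protease, summed to 25 and 1113 counts, a ratio of 83.9 (56.5 to 130.2). Tmprss11d, of the same protease family, had 66.6, 14.4, 42.3 and 10.6 CPM and reached 1.76 CPM in INT 3, which held 31 of its 41 Ltf-low counts. Hsd17b2, which oxidises estradiol to estrone, had 30.2, 5.76, 37.9 and 1.74 CPM and 10 counts in all over the Ltf-low libraries. Uox, urate oxidase, had 112, 21.4, 48.5 and 18.3 CPM against at most 0.938 CPM, with 54 counts in all and none of the Ltf-low libraries at 0. These intervals cover counting error and not the spread between libraries.

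Of the 19 measured members of the estrogen response list, 11 were higher, 0 were lower and 8 were neither, with a median log2 difference of 2.74 beside -0.01 over all genes measured. These counts include Ltf, which set the groups; without it 10 of 18 were higher and the median was 2.58. Padi1, a peptidylarginine deiminase, had 1773, 1120, 618 and 841 CPM against 18.7 to 29.8 CPM (5.49 ± 0.33), and an exon of the predicted gene Gm13032 overlaps it on the opposite strand. C3, the central complement protein, had 3964, 1436, 4593 and 1005 CPM against 123 to 186 CPM (3.86 ± 0.55). Muc1, a mucin of the luminal surface, had 169, 140, 212 and 131 CPM against 19.99 to 26.3 CPM (2.79 ± 0.17). The 8 that were neither were Clca3a1, Clca3a2, Wnt7a, Igf1, Ramp3, Greb1, Gjb2 and Aqp5. Greb1, an estrogen receptor cofactor, had 115, 124 and 154 CPM in INT 1, INT 2 and VAS 1 but 22.6 CPM in SVX_VAS 2, inside the Ltf-low range of 18.4 to 31.7 CPM. Klk1 did not pass the filter on low values.

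The receptors through which the ovarian steroids act differed little. Esr1, the estrogen receptor, had 857, 880, 797 and 896 CPM in the Ltf-high and 651 to 747 CPM in the Ltf-low libraries, which did not overlap but differed by 0.27 ± 0.04 on the log2 scale, below the size counted. Pgr, the progesterone receptor and itself a target of estrogen, had 532, 571, 329 and 708 CPM against 392 to 463 CPM, and the groups overlapped. Of 21 measured steroid receptor and enzyme genes, 2 were higher, Hsd17b2 and Hsd17b11, and 0 were lower (median -0.05).

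The small proline-rich genes encode cross-linked proteins of stratified and stressed epithelia. Of 14 listed, 6 passed the filter and 6 were higher, 8 being too low to pass, so that a member could pass by its level in the high libraries alone. Sprr2f had 507, 171, 472 and 130 CPM against 2.42 to 9.12 CPM (5.89 ± 0.55). Sprr2a3 had 107, 25.7, 78.0 and 9.02 CPM against at most 0.278 CPM, and Sprr2g had 9.995, 17.3, 26.5 and 18.2 CPM against 1.04 to 3.98 CPM. Sprr1a had 28.1, 21.6, 8.54 and 9.02 CPM and 11 counts over the 8 Ltf-low libraries. Sprr2b and Sprr2d were uneven within the Ltf-high group. Sprr2b had 22.6 and 86.5 CPM in INT 1 and SVX_VAS 2 but 2.69 and 2.41 CPM in INT 2 and VAS 1. Sprr2d had 22.4 and 37.8 against 0.564 and 0.448 CPM in the same order. The 8 Ltf-low libraries held 2 counts of Sprr2b and 1 count of Sprr2d in all. The Sprr2 genes are related copies in a cluster, and how the counting divided reads that fit several of them is not known here.

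Of 28 epithelial defence genes listed, 14 passed the filter, which a member could pass by its level in a few libraries. Of these 14, 6 were higher and 0 were lower (median 0.80), or 3 lower without SVX_VAS 2. Pigr, the receptor that carries IgA across the epithelium, had 644, 218, 990 and 178 CPM against 42.1 to 62.0 CPM (2.99 ± 0.60). Ccl28, a chemokine for IgA-secreting cells, had 208, 63.3, 95.4 and 90.7 CPM against 4.99 to 18.0 CPM (3.50 ± 0.41). Saa3, an acute-phase protein, had 6.09, 0.939, 1.54 and 0.728 CPM against at most 0.556 CPM. Cxcl17 and Wfdc2 were also higher. Of 16 complement genes 4 were higher, 1 was lower and the median was -0.13. Cfi, the protease that inactivates C3b, had 94.8, 57.0, 99.9 and 53.3 CPM against 4.53 to 8.20 CPM, and Cfb, which builds the alternative convertase, was also higher. Masp1, of the lectin pathway, was lower, with 2.97 to 6.34 against 6.40 to 10.6 CPM. The classical pathway genes C1qa, C1qb, C1qc, C1ra and C1s1 were neither.

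Of 19 mucin and glycosyltransferase genes 8 were higher and 0 were lower (median 0.28); Fut9, a fucosyltransferase, had 289, 205, 333 and 160 CPM against 24.9 to 32.5 CPM. Of 20 channel and water transport genes 3 were higher (5 without SVX_VAS 2) and 3 were lower (1 without VAS 1). Cftr, the chloride channel that drives fluid into the lumen, had 185, 136, 141 and 160 CPM against 3.27 to 5.98 CPM (5.04 ± 0.14), and Gm15592 overlaps it on the opposite strand. Slc26a9, another chloride transporter, had 21.1, 6.07, 122 and 15.7 CPM against 0.156 to 0.623 CPM. Scnn1a, a subunit of the sodium channel that removes fluid, was lower at 3.46, 4.51, 5.23 and 3.02 CPM against 5.78 to 7.93 CPM, as were Clca2 and Aqp11. Of 22 claudin, connexin and keratin genes 6 were higher and 1 was lower. Krt7, a keratin of simple epithelia, had 327, 290, 93.0 and 276 CPM against 26.7 to 33.05 CPM (2.87 ± 0.42), with SVX_VAS 2 the lowest. The lower member, Gja4, encodes a connexin of blood vessels.

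Of 21 cholesterol and fatty acid synthesis genes 12 were higher, 0 were lower and 9 were neither, with a median log2 difference of 1.11 that ranged from 0.38 in SVX_VAS 2 to 1.56 in INT 1. Msmo1, a sterol-4-alpha-methyl oxidase of the later pathway, had 76.7, 55.8, 24.5 and 55.6 CPM against 9.63 to 12.6 CPM (2.12 ± 0.35). Idi1, of isoprenoid synthesis, had 12.5, 8.20, 3.36 and 9.19 CPM against 1.05 to 2.38 CPM (2.09 ± 0.42). Both had their lowest Ltf-high value in SVX_VAS 2. The 9 that were neither were the fatty acid genes Fasn, Acaca, Acly, Scd1 and Scd2 and 4 other genes, most of them of the sterol pathway. Of 20 glucose uptake and glycolysis genes, 8 were higher and 1 was lower (median 0.44). Hk2, which traps glucose in the cell, had 149, 99.0, 228 and 121 CPM against 56.5 to 78.3 CPM, and Slc2a1, the glucose transporter GLUT1, had 57.2, 40.7, 100.7 and 36.7 CPM against 23.5 to 33.04 CPM. Pygl, which breaks down glycogen, was lower, at 27.4 to 42.6 against 51.0 to 58.2 CPM.

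Of 20 interferon-stimulated genes 5 were higher (9 without VAS 1) and 0 were lower (median 0.63). Oas3, an antiviral nucleotide synthetase, had 39.9, 38.0, 40.6 and 27.2 CPM against 2.40 to 4.82 CPM (3.29 ± 0.20). Mx1, an antiviral GTPase, had 46.4, 52.4, 21.8 and 36.2 CPM against 4.36 to 9.26 CPM, and Oasl1, Oas2 and Oas1a were also higher. Ifit1, Ifit2, Ifit3, Rsad2 and Isg15 were neither. Of 19 LIF and EGF family genes 6 were higher and 1 was lower (median 0.03, and -0.04 with upper quartile scaling). The higher members were the ligands Btc, Hbegf and Tgfa, the receptors Erbb2 and Erbb3, and the homeobox gene Msx2. Erbb3 had 134, 131, 194 and 138 CPM against 59.2 to 80.7 CPM, and Btc had 5.26, 5.01, 5.07 and 5.60 CPM against 1.21 to 2.57 CPM. Ptger2, a prostaglandin E2 receptor, was lower, and Lif, the cytokine that opens implantation, was neither. Of 20 immediate early genes 3 were higher, Klf4, Ier3 and Fos. Of 18 matrix protease genes 1, Mmp7, was higher, a share below the 6.61% of all genes. Mmp7, an epithelial metalloproteinase, had 31.1, 3.95, 47.9 and 3.58 CPM against 0.156 to 3.46 CPM.

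Of 12 progesterone-induced epithelial genes 0 were higher, 2 were lower and 10 were neither, and the median log2 difference was -1.03. The count of lower genes was 5 without SVX_VAS 2 and 4 without INT 3. By library the median was -0.74 in INT 1, -0.86 in INT 2, -0.11 in SVX_VAS 2 and -1.75 in VAS 1. Acod1, which makes itaconate (chr14:103046977-103056573, plus strand, GRCm38), had 51.0, 55.1, 57.5 and 10.6 CPM in the Ltf-high libraries and 90.6, 107 and 163 CPM as the lowest, median and highest Ltf-low values (-1.61 ± 0.60, or -1.02 without VAS 1). Il13ra2, a decoy receptor for interleukin 13, had 25.02, 22.8, 33.1 and 13.7 CPM against 41.7 to 53.6 CPM (-1.05 ± 0.27). In both genes the groups did not overlap and VAS 1 was the lowest. The 12 log2 differences lay between -1.61 and -0.10. Among 9 glandular genes 1 was lower (4 without SVX_VAS 2), Ttr, with 4.06, 1.88, 4.02 and 1.01 CPM against 4.22 to 6.05 CPM.

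Of 19 genes of the hedgehog and stromal progesterone axis 7 were lower and 1 was higher, with a median of -0.57. Gli1, the transcription factor that hedgehog signaling induces, had 100.1, 114, 149 and 83.9 CPM against 172 to 196 CPM (-0.73 ± 0.18). Ptch1, its receptor and target, had 293, 262, 389 and 192 CPM against 446 to 517 CPM (-0.83 ± 0.21). Hand2, the stromal factor that holds epithelial growth back, had 36.0, 41.0, 35.6 and 33.5 CPM against 57.2 to 93.3 CPM (-0.85 ± 0.10). Hoxa10, Hoxa11 and Nr2f1 were also lower, and Ihh, Nr2f2 and Bmp2 were neither. Wnt4 was the member that was higher, with 19.5, 14.4, 20.9 and 32.4 CPM against 4.89 to 10.99 CPM. Of 20 Wnt ligands and antagonists, Wnt11, Lef1 and Sfrp2 were lower and Wnt4 was higher (median -0.10). Lef1, a Wnt effector, had 56.5, 64.0, 65.2 and 33.4 CPM against 98.7 to 134 CPM (-1.07 ± 0.23), and Wnt11 had 18.0, 18.0, 21.8 and 13.7 CPM against 29.6 to 45.9 CPM. The remaining genes among the 15 furthest below the Ltf-low level were Cwh43, Unc80, Basp1, Vipr2, Hhipl1, Slc5a11, Kcnd3, Stac2, Efhd1, Cpne5 and Aff3, with log2 differences of -1.27 to -0.95. Exons of other genes overlap Wnt11, Lef1, Sfrp2, Hhipl1, Kcnd3, Efhd1, Gli1, Hand2, Hoxa11 and Nr2f1 on the opposite strand, and the same holds for Ttr, Slc2a1, Oasl1, Erbb2, Tgfa, Mmp7, Elf3, Eomes, Ccnd1 and Col15a1 among the genes given elsewhere as higher, lower or with values.

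**Figure D2:**
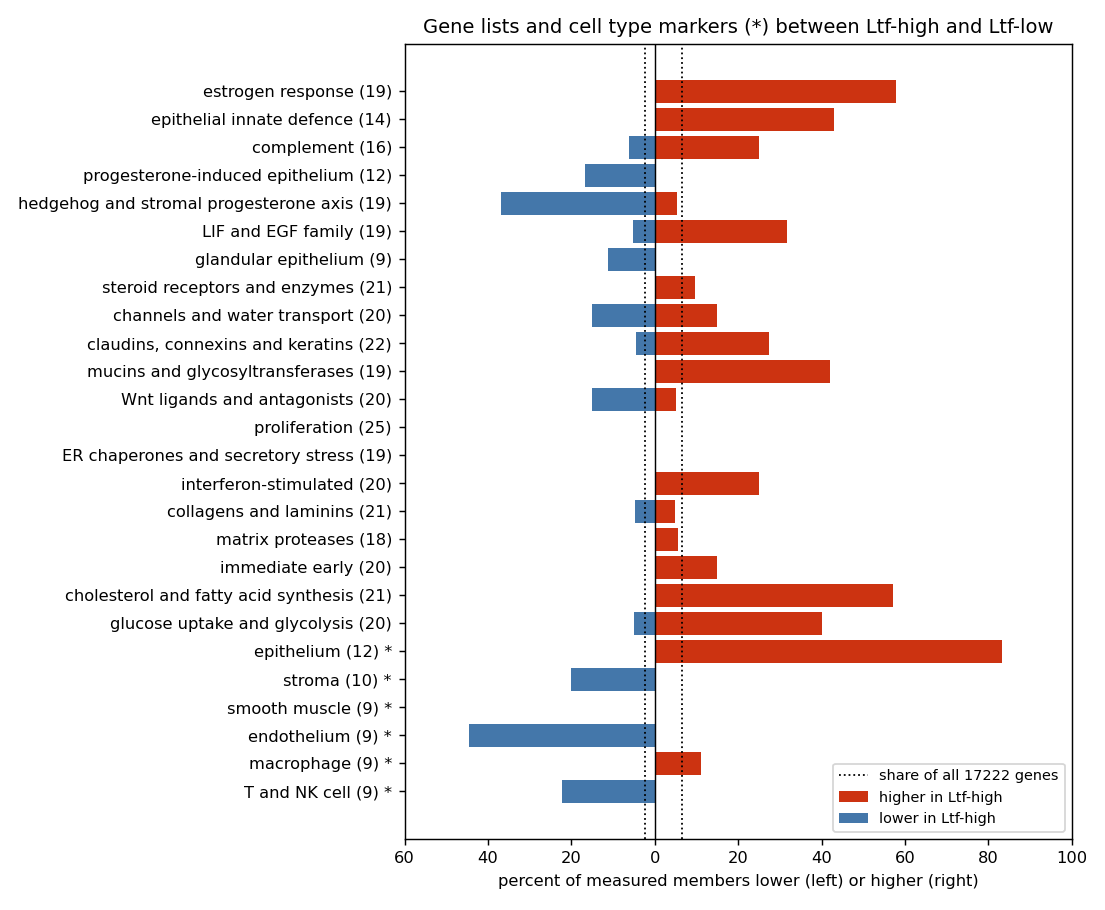
Percent of the measured members (number in parentheses) of each gene list and cell type marker list (marked *) with at least 9 measured members that were higher (right) or lower (left) in Ltf-high libraries, with dotted lines at 6.61% and 2.45%, the shares of all 17222 genes. Estrogen response, cholesterol and fatty acid synthesis and epithelial marker lists held 11 of 19 (Ltf, which set the groups, among them), 12 of 21 and 10 of 12 higher members, and the hedgehog axis held 7 of 19 lower members.

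Markers of some cell types moved with the state, and those of others did not. Of 12 epithelial markers 10 were higher, and their summed level was 2683 to 3228 CPM in the Ltf-high, 993 to 1453 in the Ltf-low and 4877 to 6350 CPM in the estrus libraries. Epcam, the epithelial adhesion molecule, had 357, 268, 292 and 318 CPM against 84.5 to 108 CPM (1.70 ± 0.10), and Elf3, an epithelial transcription factor, had 335, 264, 266 and 275 CPM against 18.2 to 40.4 CPM (3.23 ± 0.15). Cldn3 and Cldn4 were neither. Of 9 endothelial markers 4 were lower and 0 were higher (sum 722 to 940 against 1203 to 1355 CPM), of 10 stromal markers 2 were lower (6359 to 8643 against 6492 to 8431 CPM), and of 9 T and NK cell markers Gzmb and Prf1 were lower (43.2 to 66.6 against 83.9 to 106 CPM). Smooth muscle markers were 0 of 9 (647 to 1721 against 719 to 1242 CPM), with INT 1 highest and VAS 1 lowest of the 4 Ltf-high libraries. Of 9 macrophage markers 1, Cd68, was higher (288 to 353 against 296 to 429 CPM). Of 3 neutrophil markers Ly6g was higher at 2.86, 3.07, 0.716 and 3.19 CPM against 0.145 to 0.384 CPM (11.5 to 20.8 against 7.97 to 11.9 CPM in sum), while of the 7 below the filter Mpo and Elane stayed at most at 8 and 1 counts in any library and the other 5 reached at most 44 counts in an Ltf-high, 24 in an Ltf-low and 252 in a between library. Of 8 eosinophil markers 2 passed the filter, and of these Il5ra was higher (3.80 to 4.98 against 1.41 to 3.30 CPM in sum). Il5ra had 3.83, 1.44, 1.21 and 1.68 CPM against 0.156 to 0.772 CPM, and could pass by its 18.2 to 20.7 CPM at estrus alone. The eosinophil markers below the filter reached at most 34 counts in an Ltf-high and 24 in an Ltf-low library. No marker of B and plasma, red blood or ciliated and oviduct cells was higher or lower. Of 2 blastocyst markers Eomes was lower, with Pou5f1 and Nanog at no more than 1 and 2 counts in any library and the other 6 below the filter at up to 81, and of 4 mesothelial and fat markers Wt1 was lower. The sperm markers did not pass the filter, with Prm1 at 10 counts or fewer. The ovarian list passed with Inhbb alone, an activin subunit that endometrium also makes, at 124, 65.8, 48.5 and 171 CPM against 1.67 to 6.05 CPM, while Fshr and Zp3 had 0 counts in each library and the other 5 reached at most 21 counts in an Ltf-high and 39 in an Ltf-low library. The part of the epithelial, endothelial and other cell shares in the gene differences above was not tested.

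**Figure D3:**
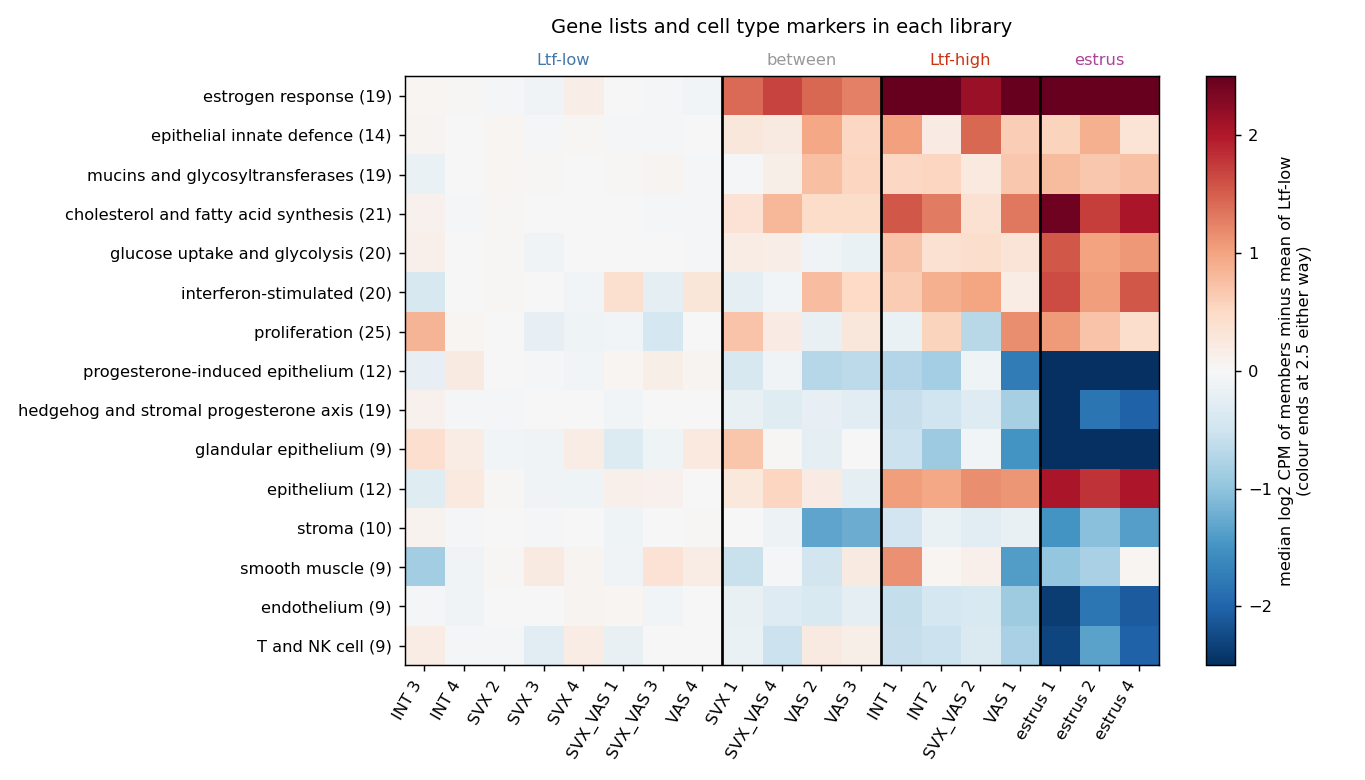
Median, over the measured members of each list, of the log2 CPM of a library minus the mean of the Ltf-low libraries, in colour (red above, blue below, ending at 2.5 either way), with libraries in columns by Ltf state. Estrogen response (with Ltf among its 19 genes) and epithelial rows are red in the 4 Ltf-high and 3 estrus libraries, whereas the proliferation row runs from -0.69 in SVX_VAS 2 to 1.16 in VAS 1 among the Ltf-high and from -0.44 in SVX_VAS 3 to 0.84 in INT 3 among the Ltf-low libraries.

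The 4 Ltf-high libraries differed among themselves. Over the proliferation list, in which 0 of 25 genes were higher and 0 lower, the median level relative to Ltf-low was -0.17 in INT 1, 0.56 in INT 2, -0.69 in SVX_VAS 2 and 1.16 in VAS 1, beside 0.44 to 1.06 at estrus. The Ltf-low libraries also spread on this list, from -0.44 in SVX_VAS 3 to 0.84 in INT 3, which was above 3 of the 4 Ltf-high libraries. Ccnd1, the G1 cyclin, had 100.8, 132, 60.9 and 216 CPM against 74.9 to 98.5 CPM, so that SVX_VAS 2 lay below and the other three above the Ltf-low range. Bub1, a mitotic checkpoint kinase, had 22.0, 44.2, 13.99 and 60.7 CPM against 13.4 to 44.7 CPM. The median over the cholesterol and fatty acid list was 1.56, 1.30, 0.38 and 1.32 in INT 1, INT 2, SVX_VAS 2 and VAS 1. The endoplasmic reticulum chaperone list held 0 higher and 0 lower of 19 genes (median 0.35), and the collagen and laminin list held 1 of each among 21, Lama5 higher and Col15a1 lower (7 higher without SVX_VAS 2). SVX_VAS 2 was the lowest of the 4 libraries for 468 of the 1139 higher genes and the highest for 266, and INT 1 was the lowest for 78 and the highest for 525. VAS 1 lay furthest from Ltf-low on the lower genes, with a median of -1.03 beside -0.66, -0.62 and -0.45 in INT 1, INT 2 and SVX_VAS 2. The count of lower genes depended on these 2 libraries: it was 976 without SVX_VAS 2 and 233 without VAS 1.

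**Figure D4:**
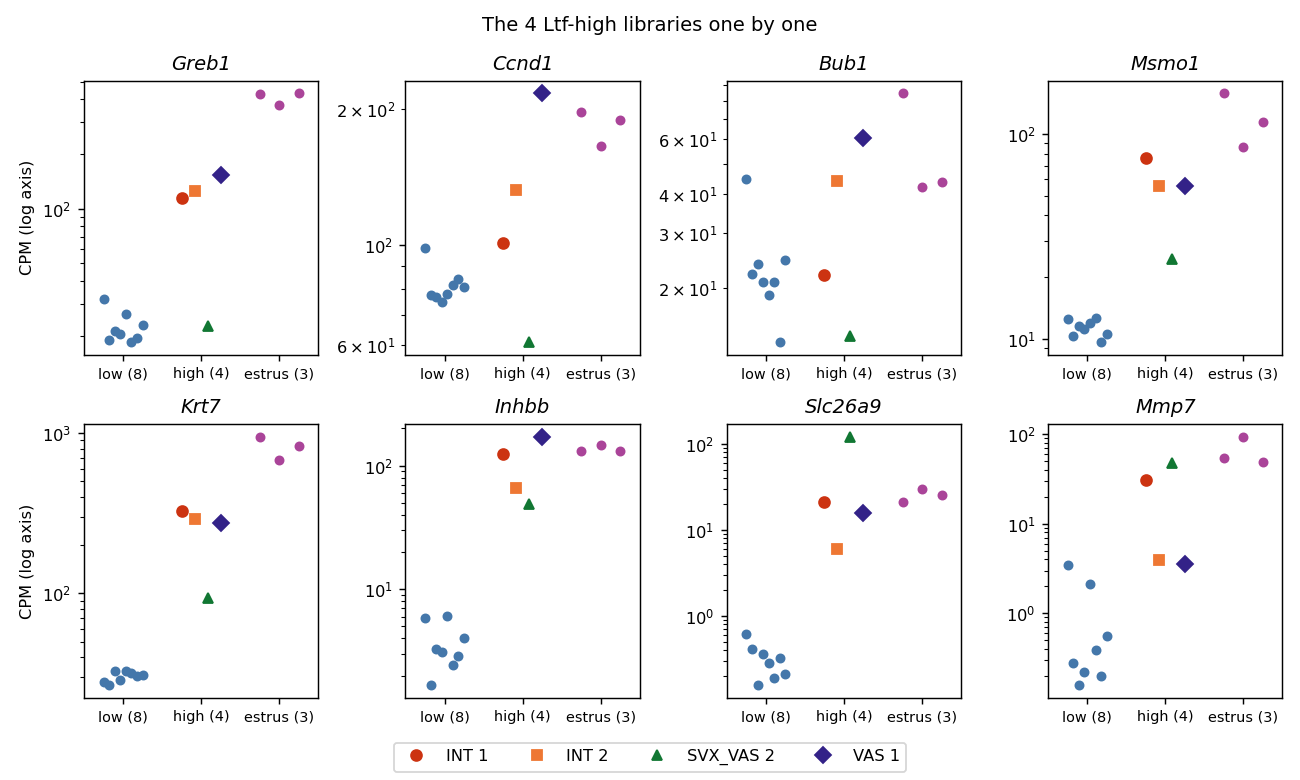
CPM (log axis) of 8 genes in the 8 Ltf-low, 4 Ltf-high and 3 estrus libraries, each Ltf-high library with its own symbol. SVX_VAS 2 (triangle) is at the Ltf-low level for Greb1 and lowest of the 4 for Ccnd1, Bub1, Msmo1, Krt7 and Inhbb, and highest for Slc26a9 and Mmp7.

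Estrus, whose libraries the rule did not use, gave a scale for the state. The median over the 1139 higher genes was 2.28 for estrus minus Ltf-low and -1.05 for Ltf-high minus estrus, and in 1132 of them all 3 estrus libraries exceeded all 8 Ltf-low libraries, beside 5836 (33.9%) of all 17222 genes. Single libraries stood at 1.12 to 1.39 (Ltf-high), 0.31 to 0.98 (between) and 2.21 to 2.33 (estrus) on this scale, and the highest between value was that of VAS 2, the other three reaching 0.56. Over the lower genes the median at estrus was -2.46, and all 422 had every estrus library below every Ltf-low library, beside 5706 (33.1%) of all genes. The Ltf-low libraries that chose these genes are the ones they are compared with here, so these counts are a description.

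The estrus libraries were then tested against the 4 libraries between the limits (edgeR quasi-likelihood test, FDR of 0.05 or less and a difference of at least 1.5-fold). None of these 7 entered the comparison of Ltf-high with Ltf-low libraries. The between libraries were, however, placed by their Ltf level, below that of every estrus library. Genes that vary with Ltf were placed with them, so the shared direction below is a description, and Ltf itself has no test here. Across all genes 2512 (14.6%) were higher and 3758 (21.8%) were lower at estrus, 6270 (36.4%) in all. Of the 1139 genes higher in Ltf-high libraries 888 (78.0%) were higher and 0 were lower at estrus. Of the 422 lower genes 376 (89.1%) were lower and 0 were higher. Without VAS 2 and VAS 3 these counts were 1109 and 415, with 0 in the opposite direction, while 18.6% and 22.7% of all genes were higher and lower. Clca1 was higher at estrus, with 2122, 3041 and 2664 CPM against 26.7, 84.6, 200.1 and 67.2 CPM in SVX 1, SVX_VAS 4, VAS 2 and VAS 3 (logFC 4.76 ± 0.69, FDR 0.0018). Lcn2 (logFC 4.10 ± 0.58, FDR 0.0017), C3 (4.09 ± 0.49, FDR 0.00093) and Msmo1 (2.24 ± 0.23, FDR 0.00055) were higher too. Greb1 was higher at estrus, at 372 to 431 CPM against 38.6 to 95.1 CPM (FDR 0.00089). Acod1 was lower at estrus, with 0.177, 0.214 and 0.527 CPM against 65.6 to 78.9 CPM (logFC -7.97 ± 0.32, FDR 0.00015), and Gli1 was lower with 3.19 to 7.23 CPM against 113 to 157 CPM (-4.69 ± 0.31, FDR 0.00025). Without VAS 2 and VAS 3 the logFC was 5.54 for Clca1, 3.93 for Lcn2, 4.05 for C3, 2.23 for Msmo1, 2.31 for Greb1, -8.05 for Acod1 and -4.86 for Gli1, and each passed again. Esr1 (logFC 0.78 ± 0.35, FDR 0.11) and Pgr (0.14 ± 0.32, FDR 0.75) did not pass, although Esr1 passed with DESeq2 (0.80, FDR 0.041) and in one edgeR fit of all 19 libraries (0.81, FDR 0.0034). Their levels in VAS 2 and VAS 3 were 365 and 347 CPM for Esr1 and 225 and 274 CPM for Pgr, the lowest of all 19 libraries. Without these libraries the logFC was 0.36 for Esr1 (FDR 0.034, but below 1.5-fold) and turned to -0.24 for Pgr (FDR 0.16).

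By list, 13 of 18 estrogen response genes (Ltf left out) were higher at estrus and 2 were lower, and without VAS 2 and VAS 3 the counts were 15 and 2. Over all genes measured 14.6% were higher and 21.8% lower at estrus, or 18.6% and 22.7% without VAS 2 and VAS 3. Of 21 cholesterol and fatty acid genes 15 were higher and 2 lower (16 and 2 without them), of 20 glycolysis genes 13 and 3 (14 and 3), and of 20 interferon-stimulated genes 12 and 0 (18 and 0). Of 19 hedgehog axis genes 12 were lower and 2 higher (13 and 2), and of 12 progesterone-induced genes 9 were lower and 0 higher (11 and 0). Some lists moved at estrus though hardly any member was counted in Ltf-high libraries. Of 19 endoplasmic reticulum chaperone genes 9 were higher and 0 lower (11 and 0), and of 18 matrix protease genes 1 was higher and 9 lower (3 and 8). Markers of some cell types moved with them: 10 of 12 epithelial markers were higher, and 9 of 9 endothelial and 8 of 9 T and NK cell markers were lower (10, 9 and 6 without VAS 2 and VAS 3). Lower too were 4 of 10 stromal, 6 of 9 macrophage and 3 of 5 red blood cell markers (8, 6 and 5 without them). The endothelial sum was 244 to 347 CPM at estrus.

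**Figure D5:**
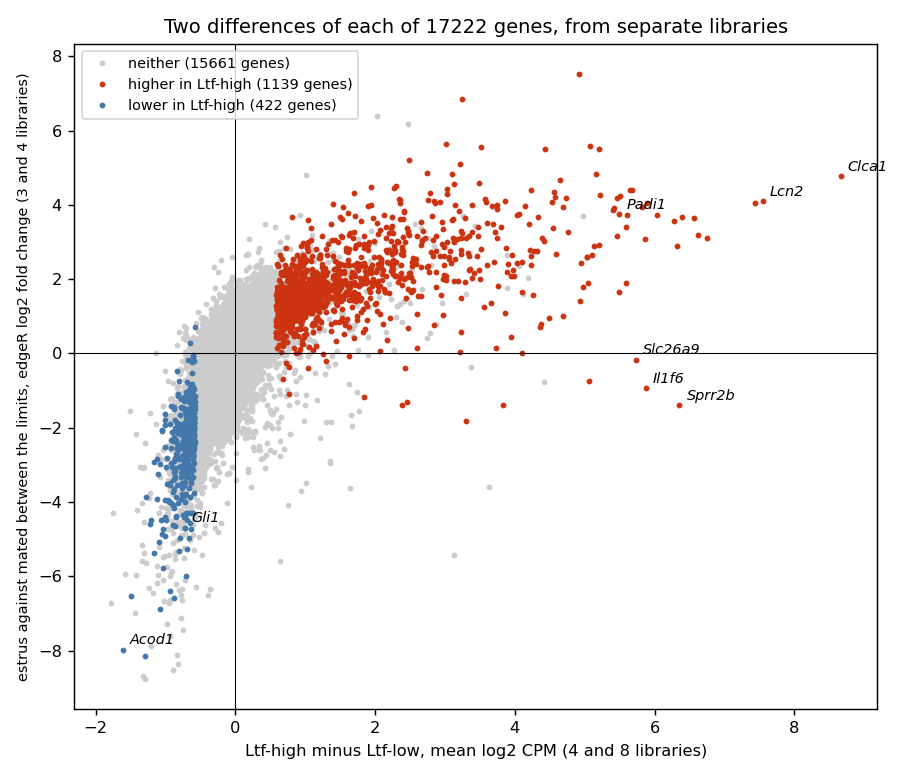
Each point is a gene, placed by its difference between Ltf-high and Ltf-low libraries (x, mean log2 CPM) and its edgeR log2 fold change at estrus against the mated libraries between the limits (y), from separate libraries. Of the red genes (higher in Ltf-high) 888 of 1139 and of the blue genes (lower) 376 of 422 passed the estrus test in the same direction, and Sprr2b, Il1f6 and Slc26a9 lie below 0 on the y axis.

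A small set of genes exceeded estrus in some of the Ltf-high libraries. Of the 1139 higher genes, 67 were above every estrus library in SVX_VAS 2, 26 in INT 1, 20 in VAS 1 and 2 in INT 2, and 18 were above estrus in both INT 1 and SVX_VAS 2. These 18, chosen after their values were seen, were Sprr2b, Sprr2d, Il1f6, Il1f9, Sema4f, Ltbp2, Cxcl16, Noxo1, Tnip3, Nod2, Slfn4, Steap1, Slc5a1, Plet1, Plet1os, Csf3, Ctsl and Trim40, of which Ltbp2, Cxcl16, Noxo1, Plet1 and Plet1os overlap exons of another gene on the opposite strand. Il1f6, which encodes the cytokine interleukin-36 alpha, had 23.7, 1.503, 40.3 and 4.37 CPM in INT 1, INT 2, SVX_VAS 2 and VAS 1, at most 0.071 CPM in the Ltf-low and 3.31, 4.78 and 3.46 CPM in the estrus libraries. Tnip3, an inhibitor of NF-κB signaling, had 26.1, 1.56, 61.8 and 0.952 CPM, against 0.393 to 0.904 CPM in Ltf-low and 4.43, 11.7 and 5.80 CPM at estrus. Nod2, a sensor of bacterial cell wall, had 19.6, 10.2, 29.7 and 8.40 CPM against 13.1, 16.2 and 15.3 CPM at estrus. Csf3, the neutrophil growth factor G-CSF, had 21.3, 5.63, 17.4 and 5.99 CPM against 15.5, 14.9 and 14.99 CPM at estrus. That INT 1 and SVX_VAS 2 were above estrus in these 4 genes follows from the choice of the 18. INT 2 and VAS 1 were below the level at estrus in the 4 genes, apart from VAS 1 for Il1f6, which lay within it. This did not hold for all 18: Sema4f had 3.13 CPM in INT 2 and 2.97 CPM in VAS 1, against at most 1.65 CPM at estrus. For Cxcl16 both libraries lay within the range of estrus. VAS 2, one of the libraries that stand apart, also exceeded every estrus library for 48 of the higher genes, with 96.8 CPM of Tnip3 and 44.9 CPM of Nod2. In the test of estrus against the between libraries Sprr2b (logFC -1.39 ± 1.42, FDR 0.46), Il1f6 (-0.94 ± 1.18, FDR 0.55) and Slc26a9 (-0.17 ± 1.15, FDR 0.91) did not pass, and without VAS 2 and VAS 3 they were higher at estrus (3.08, 2.16 and 2.70). Of the 18 genes, Plet1 (logFC 2.09 ± 0.26, FDR 0.0011) and Ctsl (2.44 ± 0.25, FDR 0.00055) were higher at estrus in this test with VAS 2 and VAS 3 included. Without these libraries Sprr2b, Il1f6 and Sprr2d (logFC 4.16, FDR 0.010) passed as well. The other members of the 18 are not given for that fit.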

How the data were processed

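Total RNA of mouse endometrium was sequenced in 19 libraries (stranded kit, paired ends). The authors trimmed adapters with AdapterRemoval version 2, aligned reads with STAR to GRCm38/mm10 and deposited raw counts per gene from featureCounts; the strand setting and the versions of STAR and featureCounts are not given in the sources used here. The deposited table held 49089 genes, of which 740 had no symbol, with exon lengths that were not used. All count columns matched a sample.

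The filter kept the genes that reached 3 CPM in 3 or more libraries of any group (17222 of 49089, 35.1%). TMM factors, CPM and log2 CPM (prior count 2) were computed in R 4.3.3 with edgeR 4.0.16. Membership was the same for all 16 mated libraries under each scaling tried. Standard errors use the spread of libraries within each state. Estrus was tested against the between libraries with glmQLFit and glmQLFTest and Benjamini-Hochberg adjustment. Opposite-strand overlaps came from the deposited exons, promoters from RefSeq, and figures from Python 3.11.15. The tests were checked on simulated data.

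The members, gene lists, markers and motifs were chosen with earlier results of these data known. Genes named are Ltf, the 15 furthest above and the 15 furthest below Ltf-low among those counted with a mean of at least 10 CPM where higher and an assigned name, up to 4 higher and 4 lower per list (2 where none counts), up to 3 per marker list, every small proline-rich gene that passed, Esr1, Pgr and Greb1; others are given as counted list members or marked. Alternatives were other scalings (DESeq2 1.42.0 size factors, upper quartile, TMM of mated libraries), filters, prior counts, cutoffs, means within mating groups, DESeq2, limma-voom (limma 3.58.1), one fit of all libraries, a replicate block and each library left out. Leaving out VAS 2 and VAS 3, genes with opposite-strand overlaps or pairs of Ltf-high libraries was chosen after the data were seen. Some genes are not reported here, and sequencing reads were not analysed here.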

Additional observations from a re-analysis of the deposited data

Results flagged for a closer look

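Single libraries that lay far from the rest of their group were sought by Dixon's test in 33 genes (the 30 furthest from the Ltf-low level, which were chosen because these 2 groups did not overlap, and Esr1, Pgr and Greb1), in the 4 Ltf-high and the 8 Ltf-low libraries. Of 66 such groups 8 held a library past the 95% critical value, and chance gives about 1 in 20, or 3.3. The test was run on CPM and not on log2 CPM, the scale of the differences above, on which the count may differ. Of the 8, INT 3 held 4: Muc4 at 13.9 CPM, Tmprss11d at 1.76 CPM, Cwh43 at 61.3 CPM and Hhipl1 at 50.4 CPM, each the highest of the Ltf-low libraries. INT 4 held 2, Clca1 at 6.89 CPM and Acod1 at 163 CPM, again the highest Ltf-low values. VAS 4 was highest of the Ltf-low libraries for Sprr1a, at 0.351 CPM, a level close to that of a few counts. Among the Ltf-high libraries VAS 1 was the lowest for Acod1, at 10.6 CPM beside 51.0 to 57.5 CPM in the other three. Muc4, Tmprss11d and Clca1 in these Ltf-low libraries remained below the lowest Ltf-high and the lowest between library, apart from Tmprss11d, which exceeded SVX 1 (1.70 CPM).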

How the results depend on the processing

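Of the counts of higher and lower genes, the alternatives that moved one by over 1.5 times were few. Upper quartile scaling gave 709 lower genes (1008 higher), with a shift of the median of all genes to -0.08. A difference of at least 1 gave 693 higher and 27 lower genes and moved 9 list counts. At that cutoff no hedgehog axis gene or endothelial marker was lower, their lowest log2 differences being -0.93 and -0.73. Leaving out each library gave 1118 to 1432 higher and 233 to 976 lower genes, the extremes of the lower genes being those without VAS 1 and without SVX_VAS 2. Without INT 1 and SVX_VAS 2 together there were 1339 lower genes. The cause of these shifts was not tested, apart from the cutoff on the difference. Other settings gave 1111 to 1420 higher genes, or 826 among genes with no opposite-strand overlap and 1555 without INT 1 and SVX_VAS 2. No named gene counted as higher or lower changed the sign of its difference between Ltf-high and Ltf-low under the settings run. Named genes counted as neither kept their sign as each library was left out and under other scalings, filters, prior counts and fits. Their signs without pairs of Ltf-high libraries are not given here, and Ccnd1 and Bub1 were uneven within that group. The medians of the LIF and EGF family (0.03) and smooth muscle lists (0.02) became -0.04 and -0.05 with upper quartile scaling. By list, that scaling gave 1 lower estrogen response gene (10 higher), 2 lower epithelial defence and 2 lower complement genes, 9 lower hedgehog axis genes and 6 higher glycolysis genes, and it moved 5 list counts by over 1.5 times. Leaving out SVX_VAS 2 moved 19 list counts and leaving out VAS 1 moved 6, and those that changed by 2 genes or more are given beside their lists. The others changed by 1 gene. Without SVX_VAS 2 these were the lower genes of the estrogen response, complement, LIF and EGF, claudin, mucin, collagen, matrix protease, immediate early and glycolysis lists, and the higher genes of the hedgehog, glandular, Wnt, proliferation and matrix protease lists. Without VAS 1 they were the lower claudin, collagen and glycolysis and the higher matrix protease genes. Leaving out INT 1, INT 2, INT 3, SVX 4 or SVX_VAS 1 moved 1 to 3 list counts each.

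For estrus against the between libraries, limma-voom gave 3940 genes higher at estrus and 3558 lower, a logFC of at least 1 gave 1474 higher, and leaving out each library gave 1886 to 2747 higher and 2891 to 3695 lower. Estrus minus between ran from -0.51 to 1.94 for Slc26a9 as each library was left out (1.94 without VAS 2), and turned to 2.70 for Slc26a9, 3.08 for Sprr2b, 2.16 for Il1f6, 4.16 for Sprr2d and 1.80 for Saa3 without VAS 2 and VAS 3. Same-numbered estrus and between libraries did not stand apart from other pairs of these (correlations of deviations 0.10, 0.10 and -0.03 beside -0.12 to 0.13). Pairing by number among the Ltf-high and Ltf-low libraries was not examined. The fit of estrus against between with the replicate block gave 1903 higher and 2692 lower genes. In the Ltf-low libraries depth limits genes below 0.144 to 0.234 CPM.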
